A study of Mus musculus with 123 samples.

Results

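Pla2g4e, the mouse gene for cytosolic phospholipase A2 epsilon, was followed through 6 h of enforced wakefulness and the week after it in the cerebral cortex. It is 1 of 13842 genes in the RNA-seq table, and was selected on its own RNA values, for its strong fall during sleep deprivation. Around it, 24 of 130727 peaks of open chromatin (regions found by ATAC-seq, in which a transposase cuts accessible DNA) lay within 100 kb of the gene's span. The gene (ENSMUSG00000050211.14) spans chromosome 2, 120166412 to 120245630, on the minus strand of GRCm38.

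The enzyme belongs to the group IV phospholipases, whose best-known members cut a fatty acid from the middle position of a membrane phospholipid. The epsilon form acts mainly as a calcium-dependent N-acyltransferase: it moves a fatty acid from phosphatidylcholine to the amine of phosphatidylethanolamine. Its products, N-acylphosphatidylethanolamines, are the stored precursors of N-acylethanolamines, the lipid messengers that include the endocannabinoid anandamide, and in the mouse its RNA is known from brain among other tissues.

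The C57BL/6J mice, of an inbred strain, were all male, aged 11 to 12 weeks at deprivation and kept in a cycle of 12 h light and 12 h dark. The sleep-deprived groups were kept awake by gentle handling from light onset (zeitgeber time 0, ZT0) to ZT6, which is 24 h to 30 h on the study's clock. T27 was taken after 3 h and T30 after 6 h of deprivation, and T36, T42, T48, T54, T60, T66, T72 and T78 after 6 to 48 h of recovery. T192 and T198 followed after 6.75 and 7 days of recovery. Each of these 12 groups had 3 animals with RNA. Undisturbed, non-sleep-deprived controls numbered 5 at ZT18, 5 at ZT12, 5 at ZT6, 3 at ZT3 and 8 at ZT0 (4 labelled T0 and 4 labelled T24). ATAC-seq came from the same cortices, with 4 controls at ZT18, 1 animal at T66 and the same numbers elsewhere. T60, T66, T192 and T198 belong to batch 2 of the labels and the other deprived groups to batch 1, while control times other than ZT3, which is batch 1 only, mix both batches. Whole cortex was ground, so that a difference in the number of expressing cells and a difference in RNA per cell cannot be told apart. The 9 markers of cortical projection neurons were all measured, none at 0 in any library.

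RNA levels are the deposited log2 values, in which 1 unit is a 2-fold difference, with an offset of 0.5 before the log, as read from the values. The mean level of Pla2g4e over all 62 animals was 3.29, above that of 28% of the genes. RNA depth cannot be read from such values. The labels state more than 36 M (mega) mappable reads per library, with a median of 55 M reads. ATAC libraries held 2.21 to 11.9 M reads in peaks, with a median of 4.09 M reads. Differences between groups are estimates from 1 linear model over all libraries with a batch term (limma), given with a standard error (SE) or a 95% confidence interval. Changes were called at a Benjamini-Hochberg adjusted p below 0.05 over all genes or all peaks, two-sided.

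The annotated promoter of Pla2g4e is shown because the peak over it is the one described in detail below. It covers 250 bases before to 50 bases after the RefSeq start site (chr2:120245286-120245585, minus strand, RefSeq on GRCm38.p6), with the bases from the start site on in capitals.
Pla2g4e promoter: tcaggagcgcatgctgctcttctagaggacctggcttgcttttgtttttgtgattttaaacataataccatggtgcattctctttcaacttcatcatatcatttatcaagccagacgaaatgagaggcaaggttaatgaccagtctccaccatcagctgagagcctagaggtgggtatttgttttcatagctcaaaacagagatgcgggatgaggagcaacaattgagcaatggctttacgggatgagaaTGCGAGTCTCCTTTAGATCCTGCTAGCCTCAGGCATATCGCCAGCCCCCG
The 300 bases held 46% G and C, against a median of 52.7% over the 32851 annotated promoters of this length, and 7 CpG, the same as the median of 7.
10 short motifs were searched on both strands of that window, and none was found. They were the E-box CACGTG (present in 7.15% of all promoters of this length), the cyclic AMP response element TGACGTCA (1.79%) and its core TGACG (20.8%), which the full element contains. The others were the AP-1 site TGANTCA (7.81%), the D-box TTATGTAA (0.938%), the EGR site GCGTGGGCG (0.612%), the nuclear receptor site AGGTCA (16.3%), the TATA box TATAAA (13.6%), the CCAAT box CCAAT (37.4%) and the GC box GGGCGG (35.7%). No match says only that these letters are not in this window. The gene's annotated span reaches 120245630, upstream of the window, and that end was not searched.

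In undisturbed animals the level of Pla2g4e followed the time of day. At ZT12, the end of the light phase, it was 4.00, 4.00, 3.93, 3.67 and 3.64 in the 5 animals. At ZT18, in the middle of the dark phase, it was 2.63, 2.66, 2.85, 2.62 and 2.68. The 8 animals at ZT0 had a lowest level of 2.68, a median of 2.91 and a highest of 3.15. Every ZT12 animal was above every ZT18 and every ZT0 animal, while the ranges at ZT18 and ZT0 overlapped. In ZT12 animals the level was higher than in ZT0 animals by 0.96 log2 units (SE 0.13, limma adjusted p = 1.63e-07), a ratio of 1.94. In ZT18 animals it was lower than in ZT12 animals, with a log2 difference of -1.16 (SE 0.14, limma adjusted p = 3.31e-08), a ratio of 0.447. Between ZT18 and ZT0 the difference was -0.20 (SE 0.13, limma adjusted p = 0.377) and did not pass. Calls were common in these comparisons: 26% of all genes differed between ZT12 and ZT0, 26.8% between ZT18 and ZT12, and 6.89% between ZT18 and ZT0. Within batch 1 the difference of ZT12 against ZT0 was 1.13 and within batch 2 it was 0.72. The difference of ZT18 against ZT12 was -1.26 within batch 1 and -1.01 within batch 2. All of these within-batch differences passed as well, with limma adjusted p between 6.17e-05 and 0.00717.

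Controls at ZT3 and ZT6, earlier in the light phase, are part of the comparisons that chose the gene and are described with no test. The 3 ZT3 animals had levels of 3.80, 3.79 and 3.78, the narrowest spread of all groups (SD 0.01). The 5 ZT6 animals had 4.18, 3.84, 3.98, 3.34 and 4.07. All 3 ZT3 animals lay in the range of ZT12, as did the ZT6 animals at 3.84 and 3.98. The ZT6 animals at 4.18 and 4.07 were above that range, and ZT6 replicate 3, at 3.34, was below it.

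During deprivation the level of Pla2g4e was low in every animal. At T27, after 3 h awake, it was 2.37, 2.58 and 2.41, against 3.80, 3.79 and 3.78 in ZT3 controls. At T30, after 6 h awake, it was 2.40, 2.56 and 2.32, against 4.18, 3.84, 3.98, 3.34 and 4.07 in ZT6 controls. Neither deprived group overlapped its controls. The log2 change was -1.34 at T27 (95% confidence interval -1.71 to -0.97), a ratio of 0.396, and -1.45 at T30 (-1.80 to -1.11), a ratio of 0.365. The gene was selected on these values, so that they are given as a description and no test is read from them. Over all genes 7.37% were called lower at T27 and 15.6% at T30. The mean at T30 was 2.43 and that at T27 was 2.45, a difference smaller than the SD of either group (0.12 at T30, 0.11 at T27).

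**Figure D1:**
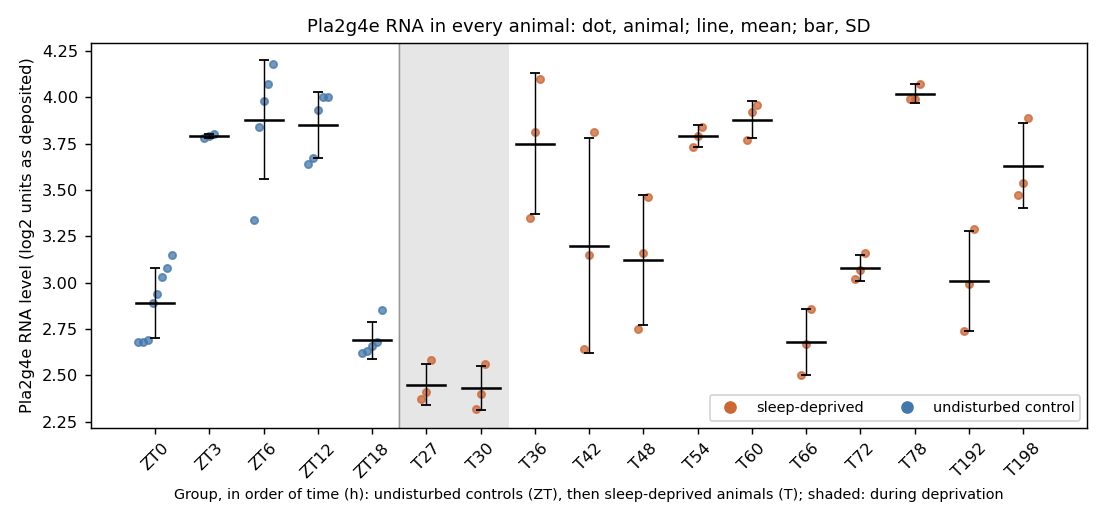
RNA level of Pla2g4e (log2 units as deposited, vertical axis) in every animal of the 17 groups (horizontal axis, in order of time), with group mean (line) and SD (bar). The 6 animals at T27 and T30, shaded, lie between 2.32 and 2.58, below every undisturbed animal.

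The deprived levels were also set beside controls of the dark phase, when undisturbed mice are mostly awake. The T27 range of 2.37 to 2.58 and the T30 range of 2.32 to 2.56 lay below the ZT18 range of 2.62 to 2.85. Both overlapped the range of T66, 2.50 to 2.86, a recovery group also taken in the dark phase. The difference of means was -0.23 between T27 and ZT18 and -0.26 between T30 and ZT18. Against ZT0, at the end of the dark phase, the differences were -0.44 for T27 and -0.46 for T30. These times of day differ, and the values stand side by side with no test.

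The gene was chosen for the size of its fall, so its place among other genes is a description of that choice. At T27 a larger fall was that of Ttr (-3.22, SE 0.78), the transthyretin gene, which is highly expressed in the choroid plexus. The next smaller falls among genes called lower at T27 were those of Samd3 (-1.03, SE 0.18) and Hunk, a kinase gene (-1.03, SE 0.20). At T30 the next smaller were those of Npcd (-1.30, SE 0.25) and Bace2, a homolog of the beta-secretase gene (-1.25, SE 0.16). By size alone, whether called or not, Pla2g4e had the 4th most negative change of all genes at T27 and the 3rd at T30.

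Markers of tissue at the edge of the dissection moved with the T27 comparison. All 3 measured choroid plexus markers of 10 listed (Ttr, Kl and Enpp2) and 4 of 9 measured meningeal markers were called lower at T27. Of all genes, 7.37% were called lower at that time. Summed on the linear scale, choroid plexus markers ranged from 137 to 150 at T27 and from 164 to 378 at ZT3. Meningeal markers ranged from 1000 to 1400 at T27 and from 1410 to 1880 at ZT3. At T27 each of these sums rests mostly on 1 gene. For choroid plexus it was Enpp2, which averaged 7.12, beside 1.83 for Ttr and 1.45 for Kl. For meninges it was Ptgds, which averaged 10.12, beside 5.21 for Igf2, the next highest. At ZT3 Enpp2 averaged 7.38, Ttr 5.05 and Kl 1.85. Whether these sums follow the amount of each tissue was not tested, and neither was the part of these tissues in the result. Ttr itself was 1.70, 1.51 and 2.29 at T27, against 7.54, 4.66 and 2.95 at ZT3, while Pla2g4e had an SD of 0.01 among those same ZT3 animals. Without ZT3 replicate 2, the animal with Ttr at 7.54, the T27 change of Pla2g4e was -1.33. At T30, 1 of the 3 choroid plexus markers (Enpp2, -0.18) and 0 of the 9 meningeal markers were called. Choroid plexus sums were 147 to 148 at T30 and 157 to 176 at ZT6. Meningeal sums were 1110 to 1540 at T30 and 1130 to 1450 at ZT6. Projection neuron markers summed to 2660 to 2820 at T27 and 2630 to 2780 at ZT3, and to 2620 to 2770 at T30 and 2630 to 2820 at ZT6; of the 9, 2 were called higher and 1 lower at T27, and 1 higher at T30. Of the 8 striatal markers none was called at T27, and 1 was higher and 1 lower at T30. Of the 8 markers of thalamus or hippocampus 1 was higher at T27 and 1 at T30. Shares over all genes were 8.21% higher and 7.37% lower at T27, and 16% higher and 15.6% lower at T30.

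After 6 h of recovery the level overlapped that of the controls. At T36 it was 3.35, 3.81 and 4.10, against 4.00, 4.00, 3.93, 3.67 and 3.64 in ZT12 controls. The groups overlapped, and the log2 change was -0.10 (95% confidence interval -0.44 to 0.25, limma adjusted p = 0.777), when 11.9% of all genes were still called. Such an interval leaves room for a remaining fall of up to 0.44 log2 units. The changes at T27 and T30 lie outside it, but they chose the gene, so that no test is read from this.

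At T42, in the dark phase 12 h after deprivation, the 3 animals spread widely, at 3.81, 2.64 and 3.15, against 2.63, 2.66, 2.85, 2.62 and 2.68 in ZT18 controls. T42 replicate 2, at 3.81, stood at the level of light-phase animals, while T42 replicate 4, at 2.64, stood within the ZT18 controls. The log2 change was 0.51 (95% confidence interval 0.17 to 0.85), which did not pass after adjustment (limma adjusted p = 0.146). Higher values were seen in 2 of 3 animals, and 1.05% of all genes were called at this time. Without T42 replicate 4 the change was 0.79 (limma adjusted p = 0.0232), and without T42 replicate 2 it was 0.21 (adjusted p = 0.689), so that single animals decide this comparison. The deprivation effect at T42 exceeded that at T36 by 0.61 log2 units (95% confidence interval 0.14 to 1.08), which did not pass either (limma adjusted p = 0.146, 3.3% of all genes called). Without T42 replicate 4 that difference was 0.88 (limma adjusted p = 0.0226).

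At T48 the levels were 3.16, 2.75 and 3.46, against 2.68 to 3.15 in the 8 ZT0 controls. At 3.16 and 3.46, 2 of the 3 animals were above the highest control. Its log2 change was 0.23 (95% confidence interval -0.09 to 0.55, limma adjusted p = 0.588, 1.27% of all genes called). The effect at T48 differed from that at T42 by -0.28 (95% confidence interval -0.74 to 0.17, limma adjusted p = 0.653, 1.01% of all genes called).

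From T54 on, levels in deprived animals lay close to those of controls at the same time of day. Levels at T60 were 3.96, 3.92 and 3.77, against a range of 3.64 to 4.00 at ZT12, and the log2 change was 0.04 (95% confidence interval -0.32 to 0.39, limma adjusted p = 0.964). At T66 they were 2.50, 2.86 and 2.67, against 2.62 to 2.85 at ZT18, with a change of -0.01 (-0.36 to 0.34, limma adjusted p = 0.994). At T72 they were 3.02, 3.16 and 3.07, against 2.68 to 3.15 at ZT0, with a change of 0.19 (-0.13 to 0.51, limma adjusted p = 0.817). At T192 they were 3.29, 2.74 and 2.99, with a change of 0.12 against the same ZT0 controls (-0.20 to 0.44, limma adjusted p = 0.904). Few genes were called in any of these comparisons: 0.00722% at T60, 0.0795% at T66, 0.00722% at T72 and 0% at T192. T48, T72 and T192 share the ZT0 controls, as T36 and T60 share those of ZT12 and T42 and T66 those of ZT18.

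The remaining groups share the ZT6 controls with the T30 comparison that chose the gene and are described with no test. Levels were 3.84, 3.73 and 3.79 at T54, 3.99, 3.99 and 4.07 at T78, and 3.47, 3.54 and 3.89 at T198. The ZT6 controls ranged from 3.34 to 4.18, and all 9 deprived animals lay within that range. Changes against ZT6 were -0.10 (SE 0.17) at T54, 0.13 (SE 0.17) at T78 and -0.25 (SE 0.18) at T198. Against controls of the same batch alone, the changes at these times were -0.01 at T54, 0.22 at T78 and -0.38 at T198. Within its own batch the change was -1.34 at T27, -1.37 at T30, -0.22 at T36, 0.49 at T42, 0.28 at T48, 0.23 at T60, 0.03 at T66, 0.24 at T72 and 0.07 at T192, and none of the tested times from T36 to T192 passed (limma adjusted p between 0.289 and 0.989).

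**Figure D2:**
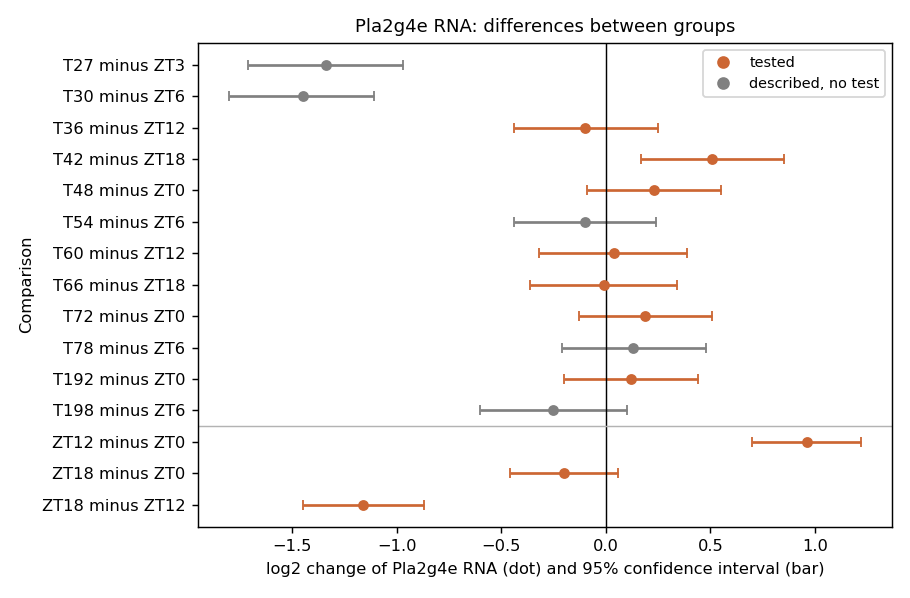
log2 change of Pla2g4e RNA (horizontal axis) with its 95% confidence interval for the 12 deprived groups against controls of the same time of day and, below the line, for 3 comparisons of control times. Grey comparisons were used by the choice of the gene or share controls with it and have no test; T27 at -1.34 and T30 at -1.45 lie farthest to the left, and T42 at 0.51 is the highest of the 12.

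Set in order, the group means ran from 4.02 at T78 to 2.43 at T30, a span of 1.59 log2 units. Of the 16 pairs of neighbours in that order, only T78 and T60, at 4.02 and 3.88, had ranges that did not overlap. The upper end held T78, T60, ZT6, ZT12, ZT3, T54, T36 and T198, with means of 3.63 to 4.02, all of them taken between ZT3 and ZT12. The middle held T42 (3.20), T48 (3.12), T72 (3.08), T192 (3.01) and ZT0 (2.89). ZT18 (2.69) and T66 (2.68), both in the middle of the dark phase, came next, and T27 (2.45) and T30 (2.43) last.

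Across the 17 groups, many genes followed a like or an opposite course, as counted below, and those with the most extreme values are described. Likeness was the Pearson correlation r over the 17 group means, among 1070 other genes with a mean level above the 25th percentile and a range of group means of at least 0.5. It is a description with no test, since the points share libraries and include the groups that chose Pla2g4e. Of the 8 genes most alike, 7 are described: Zfp46, a zinc finger gene (r = 0.963), Zfyve28 (0.959), Rassf3 (0.959), Fbxl4, an F-box gene (0.959), Dcst1 (0.957), Armcx5 (0.955) and Oscp1 (0.955). Over the 62 single animals their r with Pla2g4e was 0.888 to 0.920. Over the 13 groups other than T27, T30, ZT3 and ZT6 it was 0.943 to 0.967. The genes were picked by r and by range over all 17 groups, so this is no separate check.

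The opposite course was followed most closely by Cdyl2, a chromodomain gene (r = -0.984), Pfkfb3, which encodes an enzyme that stimulates glycolysis (-0.980), Spred1, an inhibitor of Ras signalling to ERK (-0.976), and Otub2, a deubiquitinase gene (-0.975). Cdyl2 averaged 3.66 at T30 and 2.86 at ZT6, and in controls 3.44 at ZT18 and 2.86 at ZT12. Pfkfb3 averaged 5.06 at T30 and 4.23 at ZT6. Zfp46, on the other side, averaged 4.70 at T30 and 5.53 at ZT6. Of the 1070 genes, 62 had an r of at least 0.9 and 100 an r of -0.9 or less. The range of Pla2g4e, 1.59, was wider than that of 96% of the genes compared. Its low end is T30, a group used to choose the gene, so that this width follows in part from the choice.

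**Figure D3:**
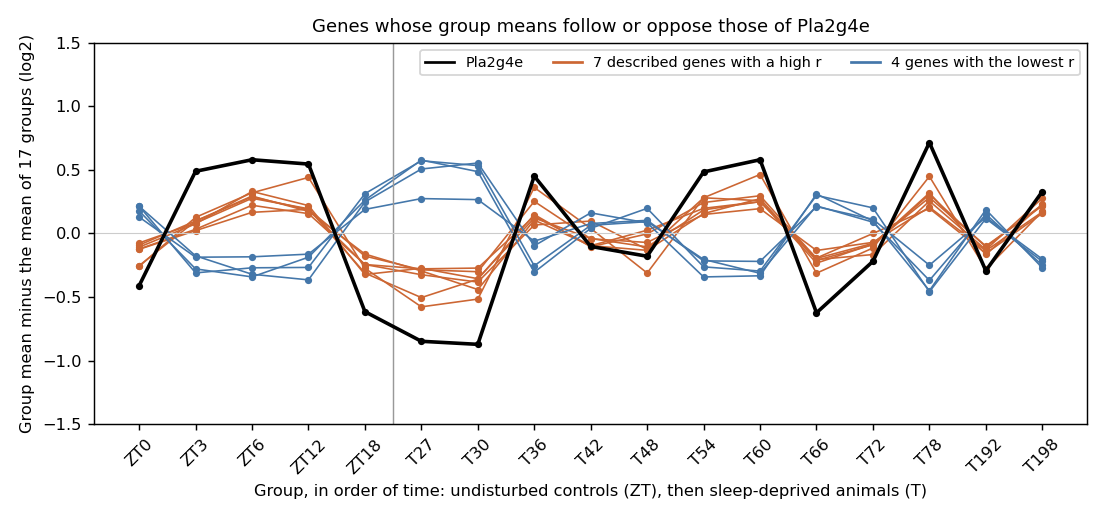
Group means minus the mean of the 17 groups (log2, vertical axis) in order of time for Pla2g4e (black), the 7 described genes that follow it (orange) and the 4 with the lowest (blue). The orange genes are low and the blue ones high at T27, T30 and T66, where Pla2g4e is low.

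RefSeq lists 8 other genes within 100 kb of Pla2g4e, and 3 of them are in the RNA table. None of the 3 was called by limma at T27, T30 or T36, when 8.21% and 7.37%, 16% and 15.6%, and 7.46% and 4.46% of all genes were called higher and lower. With 3 genes, a count of 0 is near these shares. Ehd4, an endocytosis gene 11.8 kb away, averaged 2.66 at T27 and 2.74 at ZT3 (log2 change -0.08, SE 0.09, limma adjusted p = 0.622), and 2.77 at T30 and 2.76 at ZT6 (0.00, SE 0.09, adjusted p = 0.994). Sptbn5, a spectrin gene 77.5 kb away, changed by 0.03 at T27 and -0.09 at T30 (limma adjusted p = 0.928 and 0.645). Vps39, a gene for lysosomal tethering 70.8 kb away, changed by -0.05 at T27 and -0.07 at T30 (limma adjusted p = 0.506 and 0.215). At T36 their changes were 0.12 for Ehd4, 0.04 for Sptbn5 and -0.09 for Vps39 (limma adjusted p between 0.157 and 0.880). Time of day gave differences between -0.04 and 0.09 in these 3 genes (limma adjusted p between 0.170 and 0.953). The paralogs Pla2g4d and Pla2g4f, 20.2 kb and 54.3 kb upstream, have no row in the table.

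Other genes of the pathway were taken from 4 lists of 50 genes, of which 33 were measured. At T27, 2 were called higher and 2 lower (6.06% each), beside 8.21% and 7.37% of all genes. At T30, 5 were higher (15.2%, beside 16% of all genes) and 7 lower (21.2%, beside 15.6%). At T36, 3 were higher (9.09%, beside 7.46%) and 1 lower (3.03%, beside 4.46%). With 33 genes these shares are near those of all genes. At T42 none was called by limma, beside 1.05% of all genes, so that a count of 0 says little. The median changes of the 33 genes were 0.00 at T27, -0.04 at T30, 0.03 at T36 and 0.02 at T42. Without T30 replicate 4 the T30 count fell to 7, and without T36 replicate 1 or ZT12 replicate 4 the T36 count was 2.

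Among enzymes that make and break N-acylethanolamines, 9 of 11 were measured, and 4 were lower at T30, when 15.6% of all genes were. Faah, which breaks down anandamide, averaged 6.22 at T30 and 6.41 at ZT6 (log2 change -0.19, SE 0.04, limma adjusted p = 0.000148), and it was already lower at T27 (-0.16, adjusted p = 0.00666). Inpp5d, a phosphatase gene linked to a side route of anandamide synthesis, was lower at T30 (-0.25, limma adjusted p = 0.0172) and higher at T36 (0.24, adjusted p = 0.0403). Hrasls, which encodes an N-acyltransferase that does not need calcium, was lower at T30 (-0.21, limma adjusted p = 0.0104), as was Abhd4, a lipase gene of a second route (-0.15, adjusted p = 0.0257). Napepld, whose enzyme acts on the product of Pla2g4e, averaged 3.65 in both T30 and ZT6 animals (0.00, SE 0.05, limma adjusted p = 0.984). The list's median change was -0.07 at T27, -0.15 at T30 and 0.02 at T36, beside medians of -0.0052, -0.0029 and 0.0040 over all genes.

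In the phospholipase A2 family, 12 of 23 genes were measured and limma called none lower at T27, T30 or T36, when 7.37%, 15.6% and 4.46% of all genes were called lower. A count of 0 among 12 genes is not far from these shares. Pafah1b3, a subunit of an enzyme that inactivates platelet-activating factor, was higher at T27 (0.47, SE 0.12, limma adjusted p = 0.00438), T30 (0.40, adjusted p = 0.00409) and T36 (0.60, adjusted p = 9.63e-05). Pla2g4b, another group IV gene, was higher at T30 (0.46, SE 0.15, limma adjusted p = 0.0133), an uncertain value, since its transcripts share sequence with read-through transcripts of the adjacent Jmjd7. Pla2g4a, the calcium-dependent enzyme best known for releasing arachidonic acid, averaged 1.89 at T30 and 1.89 at ZT6. The family's median change was -0.02 at T27, -0.05 at T30 and 0.01 at T36.

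Of the 6 genes for making and breaking 2-arachidonoylglycerol, the other main endocannabinoid, the 2 synthases moved apart. Daglb was lower at T27 (-0.26, limma adjusted p = 0.00265) and at T30, where it averaged 4.22 against 4.67 at ZT6 (-0.45, SE 0.06, adjusted p = 6.9e-08), and Dagla was higher at T30 (0.21, adjusted p = 0.0345). Abhd6, a hydrolase that degrades the lipid, was higher at T27 (0.20, limma adjusted p = 0.0136) and T30 (0.31, adjusted p = 1.96e-05). None of the 6 was called at T36 by limma, when 7.46% of all genes were called higher and 4.46% lower. With 6 genes, a count of 0 is near these shares. The median change was 0.08 at T27, 0.07 at T30 and 0.05 at T36. Whether Dagla and Daglb differ in their response was not tested.

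Receptors and carriers gave 6 measured genes of 10, none of them called at T27. Of all genes, 8.21% were called higher and 7.37% lower at T27, and 0 among 6 genes is near these shares. Gpr55, a receptor for lysophospholipids, was higher at T30 (0.44, limma adjusted p = 0.0012) and T36 (0.33, adjusted p = 0.0299), at low levels of 0.83 at T30 and 0.40 at ZT6. Fabp5, a carrier of fatty acids and anandamide, was lower at T30 (-0.24, limma adjusted p = 0.00042) and T36 (-0.22, adjusted p = 0.00354), and Fabp3 was lower at T30 (-0.10, adjusted p = 0.0489). Cnr1, the cannabinoid receptor gene of neurons, averaged 6.07 at T30 and 6.01 at ZT6 (0.06, limma adjusted p = 0.426). The list's median change was 0.02 at T27, 0.04 at T30 and 0.05 at T36.

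Between ZT18 and ZT12 controls, 6 of the 33 genes were higher (18.2%) and 3 lower (9.09%) at ZT18, beside 26.8% of all genes in either direction. Lower at ZT18 were Inpp5d (-0.27, limma adjusted p = 0.00206), Daglb (-0.26, adjusted p = 7.34e-05) and Hrasls (-0.18, adjusted p = 0.0137). Higher were Ptpn22 (0.36, limma adjusted p = 0.0307), Pafah1b3 (0.31, adjusted p = 0.00865) and Gpr55 (0.29, adjusted p = 0.0123). Abhd6 (0.21, limma adjusted p = 0.000548), Dagla (0.19, adjusted p = 0.0262) and Napepld (0.18, adjusted p = 0.000905) were higher as well.

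Open chromatin around Pla2g4e was an independent readout, not used to choose the gene. None of the 24 peaks in the window was called at any of the 12 times or for time of day in controls. Over all peaks, calls made up 0.689% at T27, 2.6% at T30, 0.618% at T36, 0.00153% at T48 and 1.39% for time of day (limma F-test over 5 control times), and 0% at T42, T54, T60, T66, T72, T78, T192 and T198. At these shares less than 1 call among 24 peaks would be the background count, so that a count of 0 says little about the window. Unadjusted limma p was below 0.05 for 1 of the 24 peaks at T27, 3 at T30, 4 at T36 and 3 by time of day. Over all peaks the share with such a p was 11.1% at T27, 15.1% at T30, 12.3% at T36 and 14.6% by time of day. These counts in the window are near the background. At T72 it was 5 peaks (3 higher, 2 lower), beside 4.9% of all peaks, which is above the background, with none called. The remaining times had 0 to 2 such peaks. edgeR's quasi-likelihood test on reads recovered for 51 libraries called none of the 24 either, with 1, 3 and 4 peaks at an unadjusted p below 0.05 at T27, T30 and T36. The median change of the window was -0.07 at T27, -0.15 at T30 and 0.18 at T36, beside -0.01, -0.02 and 0.00 over all peaks. Medians of like size were found at later times: -0.22 at T54, -0.25 at T78 and -0.16 at T198, which share the ZT6 controls with T30, 0.22 at T60, which shares those of ZT12 with T36, and 0.19 at T66.

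The peak over the start site spans chromosome 2, 120244801 to 120245884, and holds the whole promoter printed above. Its deposited signal was 7.94, 10.8 and 11.5 at T27, against 11.4, 10.8 and 13.2 at ZT3. It was 10.4, 9.39 and 11.2 at T30, against 11.3, 11.7, 9.92, 14.1 and 13.4 at ZT6. Deprived and control animals overlapped at both times. The log2 change was -0.23 at T27 (95% confidence interval -0.62 to 0.16, limma adjusted p = 0.731) and -0.17 at T30 (-0.53 to 0.19, adjusted p = 0.713). These intervals allow a ratio down to 0.650 at T27 and 0.690 at T30. The median in this peak was 44 reads per library.

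At T36, when RNA overlapped that of the controls, the same peak had 14.5, 13.4 and 11.2, against 7.74, 9.42, 7.97, 11.1 and 11.1 at ZT12. All T36 animals were above all ZT12 animals, a separation whose share among all peaks was not counted. The log2 change was 0.48 (95% confidence interval 0.12 to 0.84), with an unadjusted limma p of 0.00916 and an adjusted p of 0.216, so that it did not pass. Within batch 1 it was 0.60 (limma adjusted p = 0.155). The 2 ZT12 controls at 11.1 were those of batch 2. ZT12 was also the control time with the lowest mean signal, 9.48 ± 1.64 (SD, n = 5), against 11.8 ± 1.25 at ZT3 (n = 3) and 12.1 ± 1.68 at ZT6 (n = 5), while RNA was about as high at ZT12 as at ZT3 and ZT6. By time of day this peak did not pass (limma F-test adjusted p = 0.527).

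**Figure D4:**
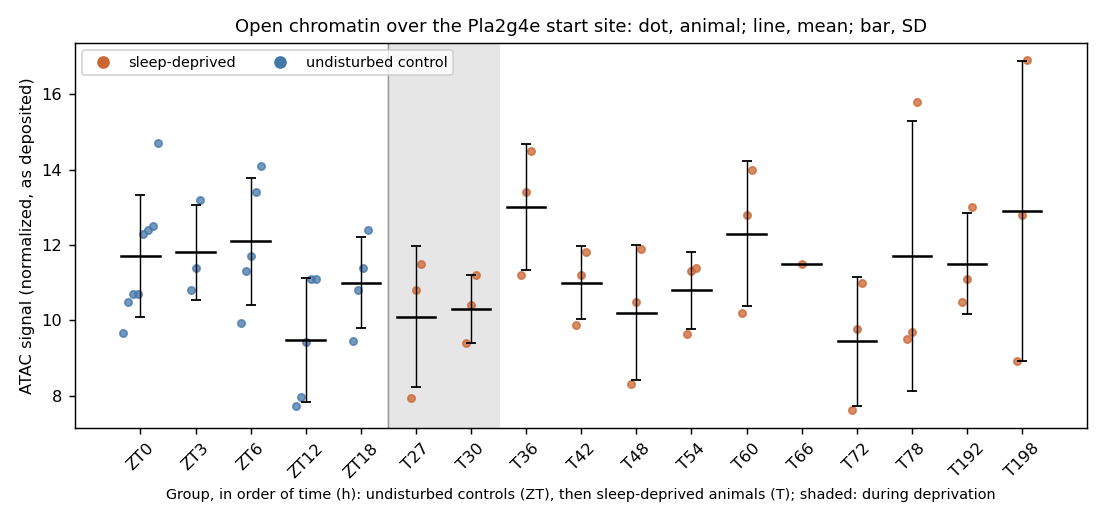
Deposited ATAC signal of the peak over the Pla2g4e start site (vertical axis) in every animal of the 17 groups in order of time, with group mean (line) and SD (bar; none at T66, with 1 animal). At T27 and T30, shaded, the animals overlap those of ZT3 and ZT6.

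A peak inside the gene's span, at -56.9 kb from the start site, where negative is downstream (chromosome 2, 120188178 to 120188700), was singled out after its values were seen. It had the lowest p of the window at T30 and at T36. Its signal was 6.09, 5.36 and 5.58 at T30, against 3.16, 3.14, 3.23, 3.05 and 2.68 at ZT6. At T36 it was 6.40, 6.27 and 4.31, against 3.04, 2.69, 1.49, 3.15 and 3.36 at ZT12. Every deprived animal was above every control at both times. How many of all peaks separate in this way was not counted. At T27 the groups overlapped, with 3.18, 4.59 and 3.74, against 3.04, 4.49 and 4.16 at ZT3. The log2 change was 0.71 at T30 (SE 0.27, limma adjusted p = 0.152) and 0.86 at T36 (SE 0.27, adjusted p = 0.119), and neither passed. Within batch 1 it was 0.83 at T30 (limma adjusted p = 0.117) and 1.11 at T36 (adjusted p = 0.0533). The median in this peak was 15 reads per library.

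**Figure D5:**
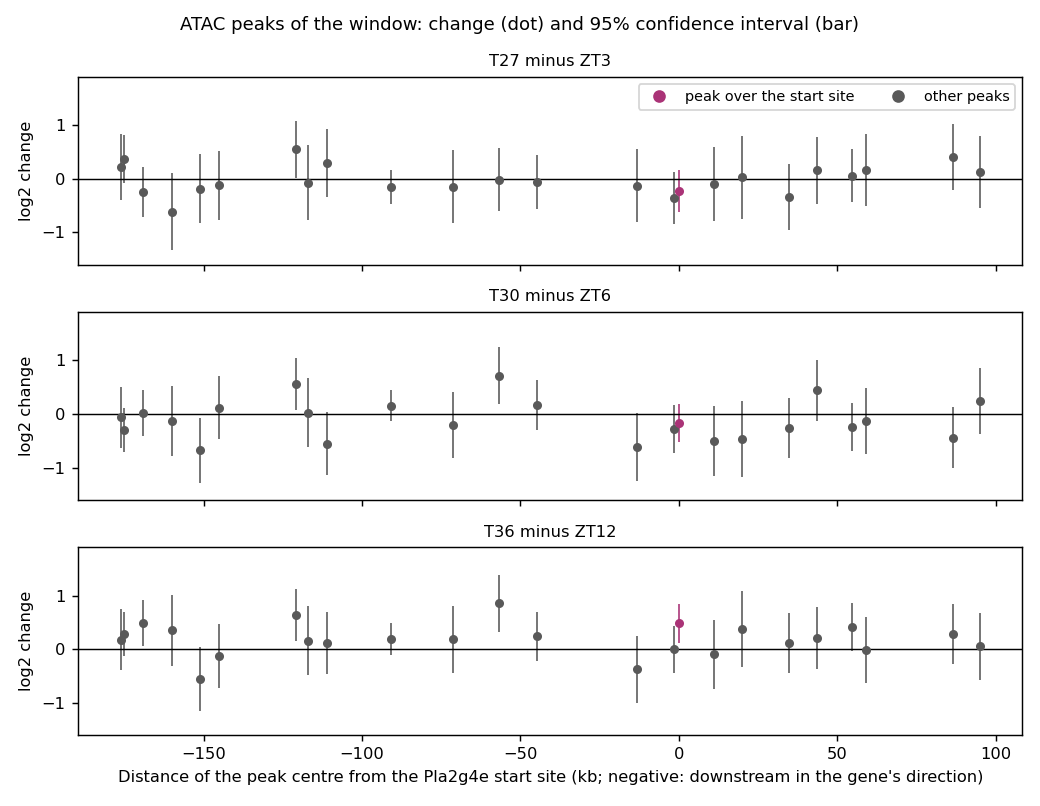
log2 change of ATAC signal (vertical axis) with its 95% confidence interval for the 24 peaks around Pla2g4e at T27, T30 and T36 against controls, by distance of the peak centre from the start site in kb. The peak over the start site is at -0.23, -0.17 and 0.48 in the 3 panels, and the highest point at T30 and T36 is the peak at -56.9 kb.

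Across the 59 animals with both assays, signal over the start site and RNA of Pla2g4e had a Pearson r of 0.0952 and a Spearman rho of 0.0659. Within batch 1 (40 animals) r was 0.0968 and within batch 2 (19 animals) 0.0446. For the 24 peaks r ranged from -0.376 to 0.336, with a median of 0.027. These are descriptions over animals of 17 groups that share their time of day and their batch.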

How the data were processed

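RNA and ATAC libraries of mouse cortex were used as deposited. Per the submitters' processing notes the authors used kallisto 0.43.0 with sleuth 0.29.0, HTSeq 0.6.1, MACS2 2.1.1, bedtools 2.26.0, Bowtie2, FastQC and SAMtools, on builds GRCm38 and mm10, with no settings or order given. The deposited RNA values are on a log2 scale, with an offset of 0.5 read from 30 values at exactly -1. No value lies below -1 in batch 1 and 23 do in batch 2; neither a batch adjustment before deposit nor scaling by length is stated in the sources. The deposited ATAC signal sums to nearly the same total in each library, and its values are multiples of 1 read (tolerance 0.02). The code check recovered reads for 51 libraries, on which edgeR 4.0.16 was run as an alternative. The second ATAC library of 1 ZT0 animal was not used, and both RNA libraries of another ZT0 animal were deposited as 1 merged column, counted as batch 1.

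Group means and batch were fitted over all libraries with limma 3.58.1 in R 4.3.3 (trend, two-sided, 44 residual degrees of freedom for RNA, 41 for ATAC), ATAC as log2(signal + 0.5), with Benjamini-Hochberg adjustment over all genes or peaks. The single T66 ATAC library is assumed to vary like the others. Scripts were tested on simulated data. Annotation and promoter sequence came from RefSeq GRCm38.p6; gene symbols matched the files directly. Labels place T36 during deprivation; the protocol's time was used. The gene and the lists were chosen with earlier results of these data known. Named were Pla2g4e throughout, up to 3 called rises and 3 called falls per pathway list, measured neighbours, called peaks and the start site peak, the 8 and 4 genes with extreme r (1 of the 8 is not reported here), and the 2 next-ranked falls; Abhd4, Napepld, Pla2g4a, Cnr1 and the peak inside the gene were named outside this rule, after their values were seen. Animals are separate mice per the labels. Animal numbers do not pair groups: deviations of same-numbered animals had a median correlation of -0.000693 in RNA (330 pairs) and -0.00465 in ATAC (315 pairs).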

Additional observations from a re-analysis of the deposited data

Results flagged for a closer look

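One value of Pla2g4e stood apart from its group. Among the 5 ZT18 controls, replicate 4 had a level of 2.85, and its gap to the next animal was a larger share of the group's range than Dixon's 95% critical value allows. It was 1 of 8 control groups examined in this way, 4 for RNA and 4 for the peak over the start site, and about 1 in 20 groups is marked by chance. Without that animal the T42 change against ZT18 was 0.56 and the T66 change 0.03.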

How the results depend on the processing

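All 15 comparisons of Pla2g4e RNA and both differences of effects were recomputed under 134 combinations with other settings (no batch term, 1 batch only, only the groups compared, no intensity trend, quantile normalization, a filter on low genes, a replicate block, and ZT0 controls of 1 label). Of these, 131 were unchanged. For tested comparisons this meant the same direction and the same side of the threshold. For those described with no test it meant a move of less than the SD within groups. T27 and T30 also had to keep their direction. The other 3, near 0, changed sign: T66 minus ZT18 was 0.03 with batch 2 only and 0.03 with only the groups compared. T60 minus ZT12 was -0.02 with a replicate block. No calls changed under the block in RNA. Leaving out each animal gave -1.40 to -1.30 for T27, -1.61 to -1.39 for T30, -0.27 to 0.10 for T36, 0.21 to 0.79 for T42, 0.06 to 0.41 for T48, -0.26 to -0.03 for T54, -0.04 to 0.09 for T60 (-0.03 without ZT12 replicate 5), -0.10 to 0.08 for T66, 0.15 to 0.23 for T72, -0.03 to 0.20 for T78, -0.38 to -0.14 for T198, -0.02 to 0.25 for T192, 0.92 to 1.02 for ZT12 minus ZT0, -0.25 to -0.17 for ZT18 minus ZT0 and -1.22 to -1.12 for ZT18 minus ZT12. The difference of effects of T42 and T36 was 0.30 to 0.88, and that of T48 and T42 -0.56 to 0.02. Counts of the pathway lists were 3 to 6 at T27, 7 to 12 at T30 and 2 to 4 at T36; these were added after seeing the data. In ATAC, 123 of 124 counts stayed at 0, the other being 1 peak at T36 with a replicate block: the peak at -56.9 kb, with a log2 change of 1.05 (limma adjusted p = 0.039). The cause was not tested. Windows of 10 kb and 250 kb held 6 and 39 peaks and gave 0 calls by limma. edgeR was not run for T60 and T66, whose reads were not recovered. Median reads per library of 9 to 115 in the 24 peaks bound the counting precision of ATAC.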
